A study of Caenorhabditis elegans with 8 samples.

Results

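The genes described are the enoyl-CoA hydratase family genes of Caenorhabditis elegans that carry the symbol ech, without ech-6, together with hacd-1, which encodes a 3-hydroxyacyl-CoA dehydrogenase. They were chosen by WormBase symbol and matched to WormBase gene identifiers, which gave 10 genes of the 20182 in the deposited tables: ech-1.1, ech-1.2, ech-2, ech-3, ech-4, ech-5, ech-7, ech-8, ech-9 and hacd-1. Total RNA of whole worms at the young adult stage was sequenced in 8 libraries. From the first larval stage on, synchronized animals fed on bacterial plates for RNA interference (RNAi), with double-stranded RNA to rege-1 or a mock. The 4 groups of 2 libraries each were the laboratory wild type N2 on mock RNAi, N2 on rege-1 RNAi, glp-1 (e2141) on mock RNAi and glp-1 (e2141) on rege-1 RNAi. The labels give 25 °C, called restrictive there, for the glp-1 animals and no temperature for N2, so that the glp-1 mutation and the temperature cannot be told apart. The Notch receptor GLP-1 maintains the stem cells of the germline. The series asks which mRNAs change when rege-1, which encodes an RNase related to mammalian Regnase-1, is targeted.

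Beta-oxidation shortens a fatty acyl-CoA in a repeating cycle. An acyl-CoA dehydrogenase (in mitochondria) or an acyl-CoA oxidase (in peroxisomes) introduces a double bond, an enoyl-CoA hydratase adds water to it, a 3-hydroxyacyl-CoA dehydrogenase oxidises the resulting hydroxyl group, and a thiolase cuts off acetyl-CoA. In worms the intestine is the main site of fat storage, and the peroxisomal cycle also shortens the side chains of the ascaroside pheromones.

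Levels are CPM, counts per 1e+06 of a library total, or CPM per kb of coding length where genes are compared with each other. That total was taken over the genes tested and multiplied by a normalization factor (TMM), 0.918 to 1.07 for mRNA. Changes are log2 differences with their standard error (SE), from edgeR's quasi-likelihood test, with p adjusted over all genes tested and a threshold of 0.05. Coding counts, called mRNA here, summed to between 26127079 and 30093967 per library and intron counts to between 464385 and 684124. After a filter on low counts, all 10 genes were among the 15321 tested for mRNA, and 6 of them (ech-1.2, ech-5, ech-7, ech-8, ech-9 and hacd-1) were among the 5042 tested for introns. Nothing in the labels says that replicates were separate cultures, and a p-value then covers the spread of these libraries alone, which may be technical.

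The targeted gene went against its label. Its mRNA counts were 396 and 354 in N2 mock, 2664 and 2137 in the N2 libraries labelled rege-1 RNAi, 495 and 480 in glp-1 mock, and 1950 and 1891 in the glp-1 libraries labelled rege-1 RNAi. Its intron counts were 15 and 15 in N2 mock, 4166 and 3265 in N2 RNAi, 40 and 25 in glp-1 mock, and 240 and 296 in glp-1 RNAi. The mRNA of rege-1 rose less than its introns in N2, by a log2 difference of -5.23 (SE 0.34, adjusted p = 1.2e-06, edgeR), while in glp-1 that difference was -1.08 (SE 0.32, adjusted p = 0.735, edgeR). Whether rege-1 was knocked down cannot be told from these counts. Every direction below is that of the libraries labelled RNAi, called RNAi for short. The mRNA of ets-4, an ETS family transcription factor gene known as a REGE-1 target, rose by 2.25 (SE 0.17, adjusted p = 8.56e-06, edgeR) in N2 and by 1.93 (SE 0.17, adjusted p = 3.85e-05, edgeR) in glp-1. Its introns changed by -0.39 in N2 (adjusted p = 0.923, edgeR) and by 0.17 in glp-1 (adjusted p = 0.993, edgeR). The mRNA of ets-4 rose beyond its introns by 2.69 in N2 (SE 0.28, adjusted p = 0.000327, edgeR). In glp-1 that difference was 1.76 (SE 0.28, adjusted p = 0.0742, edgeR), which did not pass. Germline markers were not lost in the libraries labelled glp-1: the summed level of 16 of them was 4193 to 4466 CPM there and 4949 to 6215 CPM in N2, with 0 of the 16 at 0. Of these 16 markers 4 were lower in glp-1 under mock and 7 under RNAi, where 3.24% and 7.54% of all genes tested were lower. The largest fall under mock, 1.09 on the log2 scale, was in the RNA helicase gene glh-1. In RNA of whole worms, fewer cells of a type and less RNA per cell cannot be told apart. The summed level of 12 markers of the intestine rose with the RNAi label. It was 2130 to 2258 CPM in N2 mock and 3158 to 3390 CPM in N2 RNAi. In glp-1 it was 2043 to 2130 CPM under mock and 2792 to 3004 CPM under RNAi, with 0 of the 12 at 0 in any group. Of the 12, 4 were higher in N2 (vha-6, pept-1, act-5 and ifc-2) and 1 lower (cpr-6). There 3.13% of all genes tested were higher and 1.66% lower. In glp-1, 3 were higher (vha-6, act-5 and pept-1) and 0 lower, where 1.89% of all genes were higher and 0.816% lower. The rest of the 12 did not pass. Much of the sum in N2 came from vha-6, at 343 and 341 CPM under mock and 846 and 892 under RNAi, and act-5, at 362 and 371 and then 725 and 786. The part of these markers in the changes below was not tested.

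With the RNAi label, ech-9 went from a low level, with 80 to 130 counts per mock library, to the most abundant of the 10 per kb in both strains. Smaller rises passed the test for hacd-1 and ech-7 in both strains and for ech-1.1 in N2. The mRNA of ech-1.2, ech-2, ech-3, ech-4, ech-5 and ech-8 did not pass the test in either strain. In N2, 4 of the 10 genes were higher and 0 lower, where 3.13% of all genes tested were higher and 1.66% lower. In glp-1, 3 of the 10 were higher and 0 lower, where 1.89% of all genes tested were higher and 0.816% lower. The median change of the 10 was 0.24 in N2 and 0.11 in glp-1, against -0.01 and -0.00 over all genes tested.

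**Figure D1:**
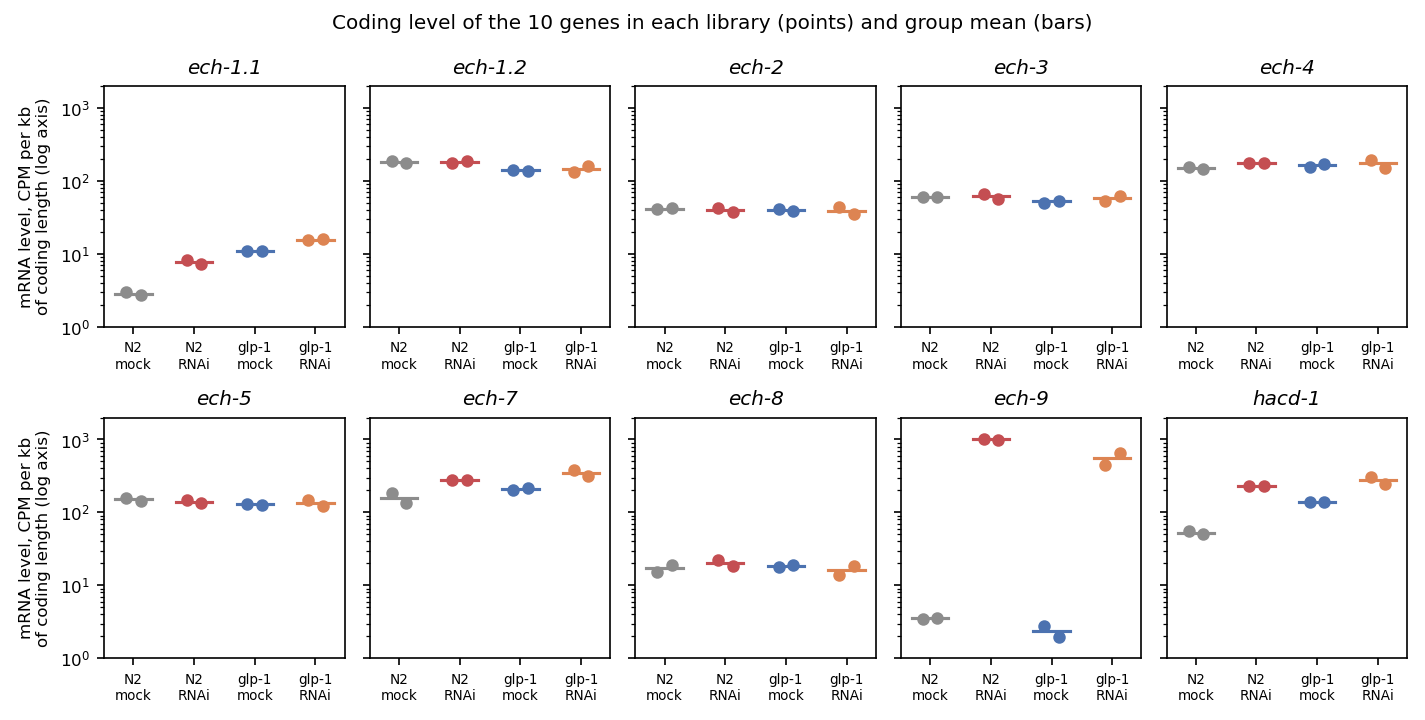
Coding level in CPM per kb (log axis) of each of the 10 genes in the 8 libraries (points), with the mean of each group of 2 as a bar. Only ech-9 spans more than 2 decades: its mean was 3.55 in N2 mock and 1000.4 in N2 RNAi, while ech-8, its neighbour on the chromosome, stayed between 16.1 and 20.4 in all group means.

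The gene ech-9 (WBGene00001158) lies on chromosome IV from 10233310 to 10235329 on the minus strand (WBcel235) and is annotated as protein coding, with 1305 bases of coding length. It was measured at 4.56 and 4.71 CPM in N2 mock and at 1326 and 1285 CPM in N2 RNAi. In glp-1 it was at 3.56 and 2.60 CPM under mock and at 589 and 844 CPM under RNAi. All 4 RNAi libraries were above all 4 mock libraries, and the N2 RNAi libraries were above those of glp-1. The change was 8.14 in N2 (SE 0.26, 282-fold, adjusted p = 1.19e-08, edgeR), the 7th largest rise of the 15321 genes tested and the 3rd lowest p. In glp-1 it was 7.86 (SE 0.26, 232-fold, adjusted p = 1.68e-08, edgeR). The change in N2 minus that in glp-1 was 0.28, with a 95% interval from -0.37 to 0.93 (adjusted p = 0.898, edgeR).

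Its rise reordered the family. Per kb of coding length, ech-9 was 9th of the 10 genes in both N2 mock libraries and 10th in both glp-1 mock libraries, and it was first in all 4 RNAi libraries. It held 0.405 and 0.463% of the summed level of the 10 genes in N2 mock, 46.9 and 46.7% in N2 RNAi, 0.305 and 0.217% in glp-1 mock, and 26.0 and 36.6% in glp-1 RNAi. The summed level itself was 863 and 779 CPM per kb in N2 mock, 2166 and 2108 in N2 RNAi, 895 and 916 in glp-1 mock, and 1733 and 1770 in glp-1 RNAi. Without ech-9 the sum was 859 and 775 in N2 mock and 1150 and 1123 in N2 RNAi. In glp-1 it was 892 and 914 under mock and 1282 and 1123 under RNAi. The RNAi libraries were thus also above the mock libraries of their strain without ech-9. The largest increases in that sum were those of hacd-1 and ech-7. In N2 their means went from 52.9 to 231 and from 159 to 279 CPM per kb. In glp-1 they went from 139 to 274 and from 211 to 345. Among all 15321 genes tested, ech-9 went from rank 10218 and 10220 by level per kb in N2 mock to rank 127 and 119 in N2 RNAi, and from 11272 and 11926 to 306 and 182 in glp-1.

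**Figure D2:**
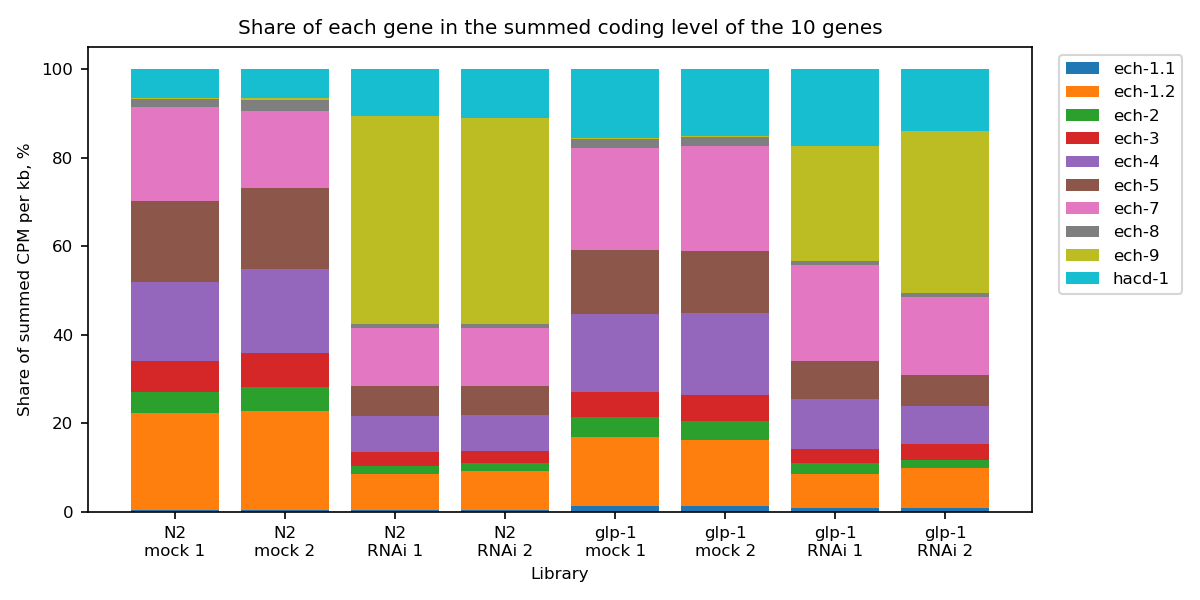
Share (%) of each of the 10 genes in their summed coding level (CPM per kb) in each library, as stacked bars. The share of ech-9 is under 0.5% in the 4 mock libraries and 26.0 to 46.9% in the 4 RNAi libraries.

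The gene ech-8 (WBGene00001157) is the next coding gene on the same strand of chromosome IV, from 10236626 to 10239176, with 1296 bases between the annotated ends of the pair and 0 coding genes in between. Its mRNA was at 20.1 and 25.0 CPM in N2 mock, 29.2 and 24.4 in N2 RNAi, 23.2 and 25.2 in glp-1 mock, and 17.9 and 24.4 in glp-1 RNAi. These groups overlapped in both strains. The change was 0.25 in N2 (95% interval -0.15 to 0.65, adjusted p = 0.683, edgeR) and -0.19 in glp-1 (adjusted p = 0.774, edgeR). The sources used here do not give how reads that match several family members were counted, nor the use of strand. The annotated position of ech-9 overlaps a pseudogene on the same strand, WBGene00045179, which is not a row of the tables.

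The dehydrogenase gene hacd-1 (WBGene00019978; chromosome V from 1460369 to 1461613, plus strand, WBcel235) rose in both strains. It was at 50.0 and 45.2 CPM in N2 mock, 208 and 207 in N2 RNAi, 125 and 124 in glp-1 mock, and 271 and 223 in glp-1 RNAi. Within each strain both RNAi libraries were above both mock libraries, and glp-1 mock stood between N2 mock and N2 RNAi. The change was 2.12 in N2 (SE 0.14, 4.36-fold, adjusted p = 3.35e-06, edgeR) and 0.98 in glp-1 (SE 0.14, 1.98-fold, adjusted p = 0.00157, edgeR). The change in N2 minus that in glp-1 was 1.14 (SE 0.20, unadjusted p = 0.000105, adjusted p = 0.16, edgeR), which did not pass. That call depended on the processing: by DESeq2 the adjusted p was 0.000347, without the filter 0.0409, with the trend over coding length removed 0.0249, and without glp-1 RNAi replicate 1 or 2 it was 0.0355 or 0.0131, in a range over 15 alternatives from 0.000347 to 0.852.

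The gene ech-1.1 (WBGene00001150; chromosome V from 15357664 to 15361512, minus strand, WBcel235) encodes a relative of the alpha subunit of the human mitochondrial trifunctional protein, HADHA, which carries both the hydratase and the dehydrogenase step for long chains. It was at 6.73 and 6.18 CPM in N2 mock, 18.8 and 16.5 in N2 RNAi, 24.7 and 24.5 in glp-1 mock, and 34.7 and 36.6 in glp-1 RNAi. The 4 groups did not overlap and stood in that order. The change was 1.45 in N2 (SE 0.15, 2.73-fold, adjusted p = 0.000106, edgeR). In glp-1 it was 0.54 (SE 0.14, adjusted p = 0.0924, edgeR), which did not pass, and passed with the trend over coding length removed (adjusted p = 0.0354, in a range over 16 alternatives from 0.0354 to 0.769). The difference between the strains was 0.91 (SE 0.21, adjusted p = 0.408, edgeR) and did not pass either. The other HADHA relative, ech-1.2 (WBGene00020347; chromosome I), was far more abundant, with 182 CPM per kb on average in N2 mock against 2.85 CPM per kb for ech-1.1. It was at 442 and 410 CPM in N2 mock, 407 and 438 in N2 RNAi, 329 and 324 in glp-1 mock, and 310 and 370 in glp-1 RNAi. The mock and RNAi libraries of ech-1.2 overlapped in both strains.

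The gene ech-7 (WBGene00001156; chromosome I from 14367616 to 14369773, minus strand, WBcel235) was at 141 and 105 CPM in N2 mock, 217 and 213 in N2 RNAi, 159 and 167 in glp-1 mock, and 291 and 240 in glp-1 RNAi. Both RNAi libraries were above both mock libraries in each strain, and the N2 mock libraries were the furthest apart among the mock values. The change was 0.81 in N2 (SE 0.16, 1.75-fold, adjusted p = 0.013, edgeR) and 0.71 in glp-1 (SE 0.16, 1.63-fold, adjusted p = 0.0445, edgeR). Both calls were close to the threshold. The N2 call was lost without N2 mock replicate 2 (adjusted p = 0.118), N2 RNAi replicate 1 (0.0726) or N2 RNAi replicate 2 (0.0886). The glp-1 call was lost without N2 RNAi replicate 1 (0.0869) or 2 (0.0874), glp-1 mock replicate 1 (0.462) or 2 (0.323), or glp-1 RNAi replicate 1 (0.173), with library size alone (0.0587), with only the compared groups in the fit (0.0874) and by limma (0.0611). Over 16 alternatives the adjusted p ranged from 0.000188 to 0.118 in N2 and from 0.00393 to 0.462 in glp-1.

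The other genes did not pass in either strain. Among them ech-4 encodes a relative of the human enoyl-CoA isomerase ECI2, which moves the double bond of unsaturated chains into the position that the hydratase uses. The 6 genes that did not pass in N2 had changes from -0.10 (ech-5) to 0.25 (ech-8), with adjusted p from 0.611 to 0.986. The 7 that did not pass in glp-1 had changes from -0.19 (ech-8) to 0.54 (ech-1.1), with adjusted p from 0.0924 to 0.972. Across all 8 libraries, ech-2 stayed between 29.7 and 37.0 CPM and ech-3 between 39.3 and 51.4 CPM. The ranges were 170 to 227 CPM for ech-4 and 105 to 136 CPM for ech-5. In N2 mock the order by mean level per kb was ech-1.2 (182 ± 9.67, SD, n = 2), ech-7 (159 ± 32.9), ech-5 (151 ± 10.9), ech-4 (150.5 ± 4.71), ech-3 (60.4 ± 0.781), hacd-1 (52.9 ± 3.75), ech-2 (41.5 ± 1.01), ech-8 (17.2 ± 2.61), ech-9 (3.55 ± 0.0817) and ech-1.1 (2.85 ± 0.17). From ech-1.2 to ech-4, neighbours in that order differed by less than the larger of their SDs, and all other neighbours by more.

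**Figure D3:**
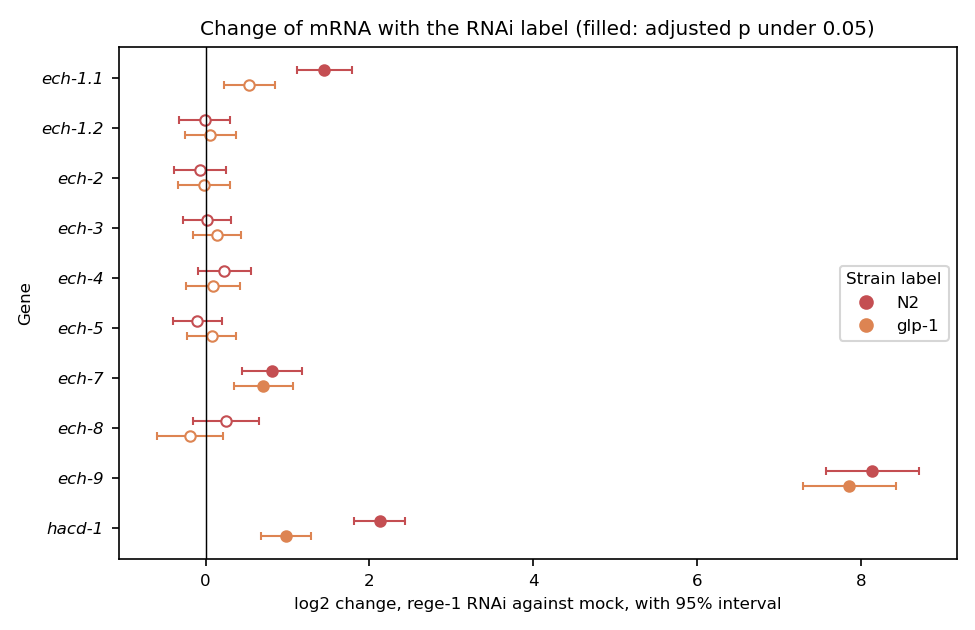
Log2 change of mRNA with the RNAi label for the 10 genes in N2 and in glp-1, with 95% intervals. Filled points passed the adjusted p threshold of 0.05: ech-9, hacd-1 and ech-7 in both strains and ech-1.1 in N2, while the intervals of the other genes reach to both sides of 0 except that of ech-1.1 in glp-1.

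The strains differed under mock in 2 of the 10 genes, both higher in the libraries labelled glp-1, where 6.49% of all genes tested were higher and 3.24% lower. The mRNA of ech-1.1 was higher by 1.93 (SE 0.15, 3.81-fold, adjusted p = 1.28e-05, edgeR) and that of hacd-1 by 1.39 (SE 0.14, 2.62-fold, adjusted p = 8.87e-05, edgeR). The other 8 had changes from -0.58 (ech-9, adjusted p = 0.133) to 0.41 (ech-7, adjusted p = 0.139). Without glp-1 RNAi replicate 1 or 2, 4 genes passed, with ech-1.2 and ech-9 below the threshold too. Under the RNAi label 1 of the 10 was higher in glp-1 and 1 lower, where 10.6% of all genes tested were higher and 7.54% lower. There ech-1.1 was 2.02-fold higher in glp-1 (SE 0.14 on the log2 scale, adjusted p = 0.00123, edgeR), and the log2 difference of ech-9 was -0.87 (SE 0.19, adjusted p = 0.0125, edgeR). The call of ech-9 was lost with only the compared groups in the fit (adjusted p = 0.0538) and without N2 RNAi replicate 2 (0.0774), in a range over 16 alternatives from 0.00011 to 0.0774. Strain comparisons under mock share their N2 and glp-1 mock libraries with the RNAi comparisons.

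The RNAi changes were set against each other by a test of their difference, N2 minus glp-1. None of the 10 genes passed in edgeR, where 0.0261% of all genes tested did (4 genes). An unadjusted p under 0.05 was found for 2 of the 10, hacd-1 and ech-1.1, and DESeq2 called 1, hacd-1.

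Intron counts, read from transcripts not yet spliced or from retained introns, ranged from 0 for ech-3 and ech-4 to between 106 and 174 per library for ech-5. For ech-9 they were 0 and 1 in N2 mock, 26 and 3 in N2 RNAi, 0 and 0 in glp-1 mock, and 14 and 5 in glp-1 RNAi. The RNAi libraries were above the mock libraries in both strains, and in each RNAi group replicate 1 was well above replicate 2. Only N2 RNAi replicate 1 and glp-1 RNAi replicate 1, with 26 and 14 counts, exceeded the filter's minimum count of 10. The introns of ech-9 were thus kept for the test by their counts in RNAi libraries alone. In N2 the ratio of the summed counts, scaled for library size, was 28.6, with a 95% counting interval from 4.74 to 1168. In glp-1 the 19 counts under RNAi were, after scaling, 6.96-fold above a floor of 3 counts set for the mock group, which had 0. That value leaves out the counting error of the 19 and is not a lower limit. Counting intervals cover counting error only. By edgeR neither passed (adjusted p = 0.189 in N2 and 0.213 in glp-1). Both passed without the filter on low counts (0.00635 in N2 and 0.00568 in glp-1), and the N2 change also without N2 RNAi replicate 2 (0.0198). Over 13 alternatives the adjusted p ranged from 0.00635 to 0.804 in N2 and from 0.00568 to 0.999 in glp-1.

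For hacd-1 the intron counts were 2 and 1 in N2 mock, 24 and 7 in N2 RNAi, 9 and 10 in glp-1 mock, and 17 and 12 in glp-1 RNAi. In N2 the change was 3.23 (SE 0.79, adjusted p = 0.0473, edgeR), and the ratio of summed counts was 10.2 with a counting interval from 3.18 to 52.1. It was the 1 intron call among the 6 genes tested in N2, where 1.07% of all genes tested were called. The call was lost in 9 of 13 alternatives, the fits without either N2 mock library (adjusted p = 0.227 and 0.192), without N2 RNAi replicate 1 (0.496) and without any 1 of the 4 glp-1 libraries (0.0615 to 0.0678) among them, and over the 13 the adjusted p ranged from 0.0112 to 0.496. In glp-1 none of the 6 genes was called by edgeR, where 0.694% of all genes were called. There 1 of the 6 had an unadjusted p under 0.05, and DESeq2 called 0 of the 3 to which it gave an adjusted p, hacd-1 and ech-9 not among them.

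The introns of ech-7 had 62 and 23 counts in N2 mock, 49 and 62 in N2 RNAi, 132 and 135 in glp-1 mock, and 116 and 124 in glp-1 RNAi, so that mock and RNAi overlapped in N2. In glp-1 the scaled ratio of RNAi to mock was 0.987, with a counting interval from 0.826 to 1.18. Those of ech-8 had 6 to 11 counts in each of the 8 libraries. The introns of ech-3 and ech-4 had 0 counts in each library and those of ech-1.1 had 2 over all libraries, so no change of their introns was detectable at this depth. A further test asked whether mRNA changed beyond the introns. None of the 6 genes passed by edgeR in either strain, where 0.04% of the 4999 genes tested did in N2 and 0% in glp-1. For ech-9 the estimate was 3.40 (95% interval -2.99 to 9.79) in N2 and -3.06 (95% interval -25.7 to 19.5) in glp-1. For hacd-1 in N2 it was -1.19 (95% interval -3.02 to 0.64). With intervals this wide the test could not decide whether mRNA and introns of these genes changed alike. An unadjusted p under 0.05 was found for 0 of the 6 in N2 and for 1 in glp-1, ech-7 (0.72, unadjusted p = 0.0251), and DESeq2 called 0 in either.

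**Figure D4:**
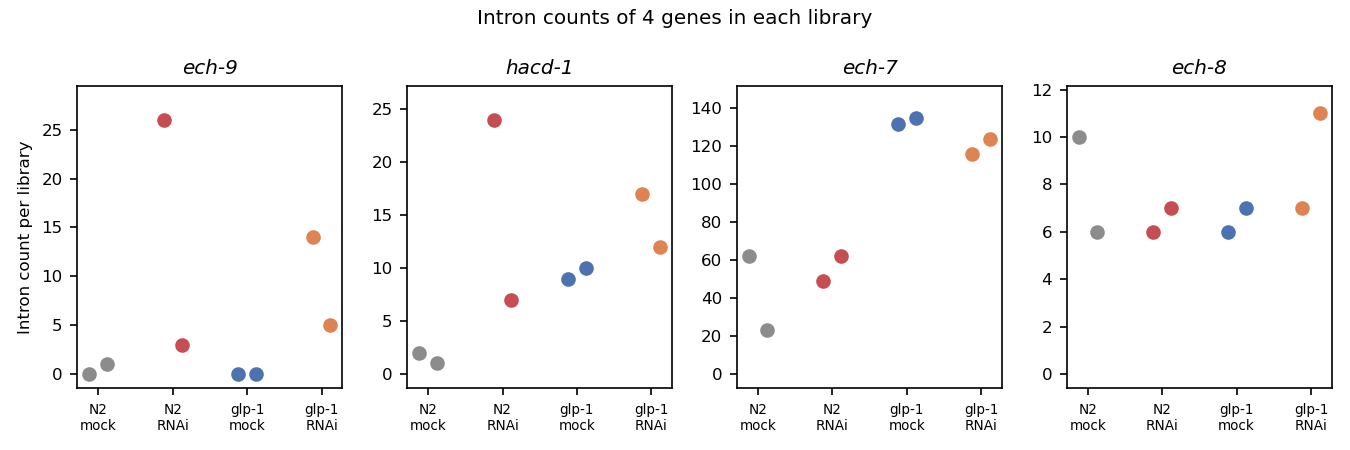
Intron counts (linear axes that differ between panels) of ech-9, hacd-1, ech-7 and ech-8 in each library. For ech-9 the RNAi libraries range from 3 to 26 counts and the mock libraries from 0 to 1, while the groups of ech-8 overlap.

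Other steps of beta-oxidation were described from gene lists. The counts of all these lists stand beside 3.13% of all genes tested higher and 1.66% lower in N2. In glp-1 these shares were 1.89% and 0.816%. The median change over all genes tested was -0.01 in N2 and -0.005 in glp-1. Among the 7 peroxisomal acyl-CoA oxidases, which start the peroxisomal cycle, 3 were higher and 3 lower in N2, and 2 were higher and 1 lower in glp-1, with a median change of 0.18 and 0.32. The oxidase gene acox-1.5 was at 25.5 and 35.7 CPM in N2 mock, 1241 and 1033 in N2 RNAi, 41.6 and 43.0 in glp-1 mock, and 715 and 795 in glp-1 RNAi. It rose by 5.22 (SE 0.21, adjusted p = 7.02e-08, edgeR) in N2 and by 4.16 (SE 0.20, adjusted p = 2.84e-07, edgeR) in glp-1. On the same list acox-1.6 rose by 1.12 in N2 and 0.93 in glp-1, and acox-1.3 fell by 1.51 in N2 and to 0.466 times the mock level in glp-1. Without N2 mock replicate 1 or N2 RNAi replicate 2 the N2 count was 3. Leaving out either glp-1 mock library gave a glp-1 count of 1. The glp-1 call of acox-1.3 was also lost without glp-1 RNAi replicate 1 (adjusted p = 0.15).

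The dehydrogenase gene dhs-28 and the thiolase gene daf-22, which act in the later peroxisomal steps of ascaroside synthesis, also rose. In N2 dhs-28 rose by 1.09 (SE 0.13, adjusted p = 0.000353, edgeR) and in glp-1 by 0.97 (SE 0.13, adjusted p = 0.00137, edgeR). Of 8 other hydratases and hydroxyacyl-CoA dehydrogenases, with a median change of -0.01 and 0.10, 2 were called in each strain with the trend over coding length removed. By DESeq2 2 were called in glp-1. In the main analysis dhs-28 was the 1 gene of the 8 past the threshold in either strain. Its glp-1 call was lost without glp-1 mock replicate 1 (adjusted p = 0.0644). The gene daf-22 rose by 0.54 (SE 0.13, adjusted p = 0.0295, edgeR) in N2 and by 0.65 (SE 0.13, adjusted p = 0.0164, edgeR) in glp-1, as the 1 called of 5 thiolases matched of 7 listed, whose median change was 0.10 and 0.14. Its N2 call was lost without any 1 of the N2 libraries (adjusted p = 0.131 to 0.14) or of the glp-1 mock libraries (0.0655 and 0.0736), with library size alone (0.0619) and by limma (0.0663). Its glp-1 call was lost without glp-1 mock replicate 1 (0.416) or 2 (0.11) or glp-1 RNAi replicate 1 (0.0624), and with only the compared groups in the fit (0.0776).

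Among 11 carnitine palmitoyltransferases, which pass chains into mitochondria, and peroxisomal half-transporters of the pmp family, 3 were higher and 3 lower in N2, and 1 was higher and 0 lower in glp-1, with a median change of 0.13 and 0.04. The transporter gene pmp-1 rose by 2.67 (SE 0.22, adjusted p = 1.28e-05, edgeR) in N2 and by 2.47 (SE 0.21, adjusted p = 3.49e-05, edgeR) in glp-1. The gene cpt-3 rose by 2.34 (SE 0.22, adjusted p = 3.68e-05, edgeR) in N2, and pmp-5 fell by 0.89 there. The change of cpt-3 was larger in N2 than in glp-1 by 2.34 (SE 0.29, adjusted p = 0.0248, edgeR), a call lost in 6 of the 8 fits without 1 library, with adjusted p from 0.0613 to 0.222. Without N2 mock replicate 1 or 2 the N2 count of the list was 3.

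Of 14 acyl-CoA dehydrogenases 0 were higher and 1 lower in N2, acdh-1 (-1.08, adjusted p = 0.0308, edgeR), and 0 were called in glp-1, with a median change of -0.08 and 0.13. The acdh-1 call was lost without N2 mock replicate 2 (adjusted p = 0.232), without N2 RNAi replicate 2 (0.325) and without 3 of the 4 glp-1 libraries (0.0574 to 0.0713), and with only the compared groups in the fit (0.121). Of 3 dienoyl-CoA reductases matched of 4 listed, with medians of -0.17 and 0.10, 0 were called in N2 and decr-1.1 rose by 0.75 in glp-1 (adjusted p = 0.00516, edgeR), which was lost without glp-1 mock replicate 1 (0.144) or 2 (0.114). Of 11 peroxins, which build peroxisomes, with medians of 0.06 and 0.19, prx-11 rose by 0.86 in N2 (adjusted p = 0.0334, edgeR), lost in 9 of 16 alternatives, the fits without N2 mock replicate 1 (0.26), N2 RNAi replicate 1 (0.213) or any 1 of the glp-1 libraries (0.0541 to 0.0593) among them, and 0 were called in glp-1. Of 14 regulators of fat oxidation ets-4 was the 1 gene called in each strain, and the medians were 0.28 and 0.19. In N2 the called share was 7.14% of the acyl-CoA dehydrogenases, 7.14% of the regulators and 9.09% of the peroxins. With lists this short, 1 call says little about a list as a whole. Over the alternatives the counts of called genes ranged from 0 to 1 in both strains for the acyl-CoA dehydrogenases, thiolases, dienoyl-CoA reductases and peroxins.

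**Figure D5:**
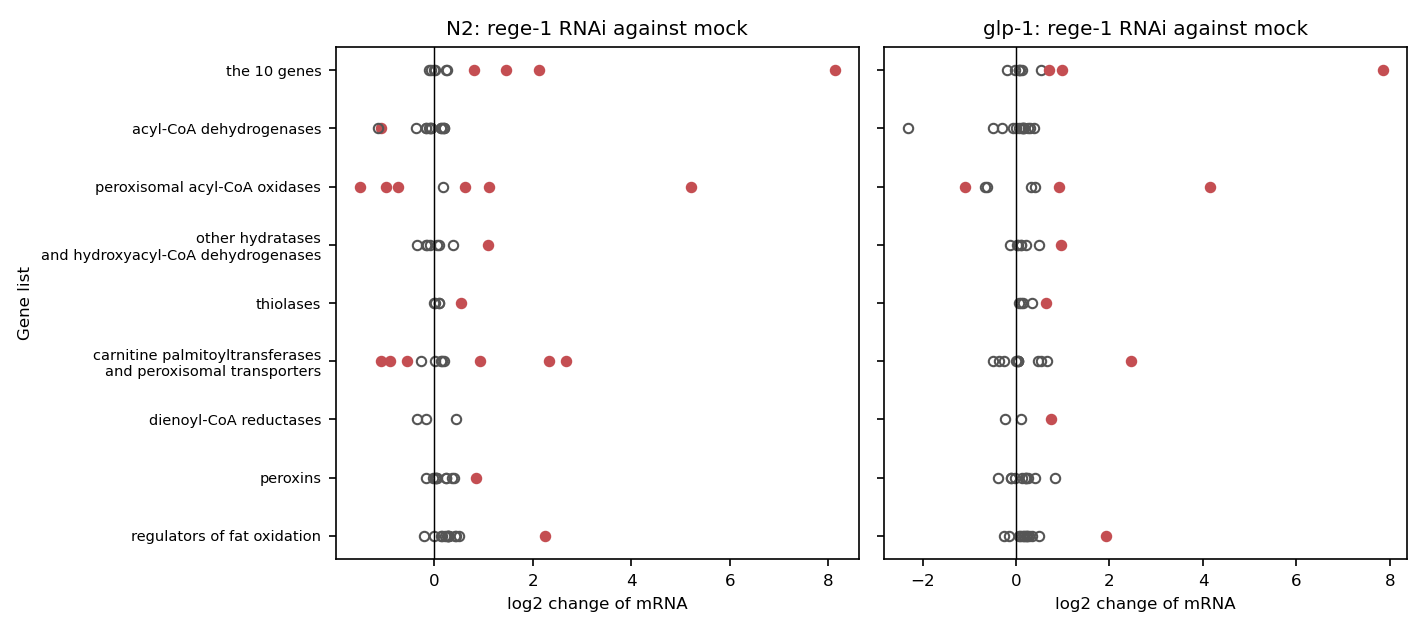
Log2 change of mRNA with the RNAi label in N2 (left) and glp-1 (right) for the 10 genes and for each listed gene of other steps of beta-oxidation. Filled points passed the adjusted p threshold of 0.05; acox-1.5 at 5.22 in N2 and 4.16 in glp-1 stands next to ech-9 at 8.14 and 7.86.

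The genes with the most similar pattern were sought for the 3 members called in both strains. Likeness was the smallest root mean square difference of log2 of CPM plus 1 over the 8 libraries, with each gene centred on its mean. For ech-9 they were the UDP-glucuronosyltransferase gene ugt-18 (0.170), the C-type lectin gene clec-70 (0.515) and the aspartyl protease gene asp-12 (0.700). For hacd-1 they were comt-2 (0.158), C24B9.3 (0.206) and the cytochrome P450 gene cyp-13B1 (0.260). For ech-7 they were R13H4.5 (0.0862), C46G7.1 (0.0959) and dmsr-2 (0.138). The distance from ech-9 to its nearest gene was close to that of hacd-1, although the change of ech-9 was far larger. Of the comparison genes, ugt-18 went from 1.67 CPM on average in N2 mock to 488 in N2 RNAi and from 0.567 to 262 CPM in glp-1. In glp-1 mock ugt-18 was thus near the floor. Some of the others were near it too, with means in N2 mock of 0.418 CPM for clec-70, 0.471 for comt-2 and 0.842 for dmsr-2. At such levels the added 1 shrinks a change, so a small distance need not mean an equal change. By edgeR comt-2 rose by 3.44 in N2, against 2.12 for hacd-1. In glp-1 ugt-18 rose by 8.83 and clec-70 by 10.2, against 7.86 for ech-9. The change of ugt-18 in N2 was 8.19, against 8.14 for ech-9.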

How the data were processed

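The authors deposited raw counts of each gene for mRNA (coding length) and, in another table, for introns. The authors' log2 values are those of counts scaled to equal library totals with a pseudocount of 8, as checked from the values. Per the labels, RNA was extracted with Trizol and libraries were made with the ScriptSeq v2 kit. Not given in the sources used here are the aligner, build, annotation, counting tool and use of strand. Positions come from the Ensembl annotation of WBcel235, in which 19513 of 20182 genes were found and whose coding length equalled that of the tables for 8 of the 10 genes. Among the 20182 rows, 3 had no WormBase identifier and were kept.

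Counts were tested in R 4.3.3 with edgeR 4.0.16 (TMM, filterByExpr with a minimum count of 10, two-sided quasi-likelihood F test, 4 groups fitted together with 4 residual degrees of freedom) with Benjamini-Hochberg adjustment over all genes tested. The change of mRNA beyond introns was an interaction term with the library as a block. The script was tested on simulated data. Alternatives tried were DESeq2's size factors, scaling by library size alone, omission of the filter, a replicate block, the compared groups alone, DESeq2 1.42.0, limma 3.58.1 on the deposited log2 values, the trend over coding length removed, and each library left out. Named were the 10 genes, rege-1, ets-4, up to 3 called genes per list and RNAi comparison by lowest p, and 3 genes of similar pattern (log2 of CPM plus 1). Genes and lists were chosen with earlier results of these data known. The mean chi-square per gene between replicates was 3.40 to 55.5, where counting error alone gives 1. Protein and promoter sequences were not used here.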

Additional observations from a re-analysis of the deposited data

How the results depend on the processing

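For the 10 genes, 25 results were recomputed under alternatives, which gave 384 values: 346 kept direction and call, 22 lost the call, 16 gained it and 0 reversed. The rises of ech-9 and hacd-1 in both strains and of ech-1.1 in N2 kept their call in all 16 alternatives run. The count of genes called for the difference between the strains, 0 in the main analysis, was 1 without the filter, by DESeq2 and with the length trend removed, and 0 to 1 with each library left out. For glp-1 against N2 it was 2 under mock (2 to 4 with a library left out) and 2 under RNAi (1 to 4 with a library left out, 1 with the compared groups alone). For N2 introns it was 1, with 2 without the filter, 0 with library size alone or limma, and 0 to 2 with a library left out. It was also 0 with the compared groups alone, where the filter removed ech-9 and hacd-1, and by DESeq2, which gave neither an adjusted p, so those counts say nothing of either gene. For glp-1 introns it was 0, and 1 without the filter. Of the acyl-CoA oxidases 3 were called in glp-1, and 5 without the filter or by DESeq2. For N2 mRNA it was 4 (3 to 4 with a library left out) and for glp-1 mRNA 3 (2 to 3). The causes were not tested. Library size alone shifted the median strain difference of all genes by 0.13 under mock and 0.16 under RNAi. With a replicate block the counts were 4 in N2, 3 in glp-1, 0 for the difference, 2 and 2 between strains, and 1 and 0 for introns, so the block changed none of these counts of the 10 genes. On the lists it moved the acyl-CoA dehydrogenases called in glp-1 from 0 to 1 and the carnitine palmitoyltransferases and transporters called in N2 from 6 to 5. The labels do not say whether replicate numbers pair libraries. The differences between replicates 1 and 2 correlated across genes at 0.169 between N2 mock and N2 RNAi. Between glp-1 mock and glp-1 RNAi the correlation was -0.0368, with -0.114 to 0.0704 for the other pairs of groups. These values do not decide whether libraries of the same number were paired. Fits without 1 library leave a lone sample that is assumed to vary like the other groups. Intron counts under 30 per library limit what could be detected for ech-9 and hacd-1.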

Other observations

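The hydratase gene ech-6, which acts in the degradation of short and branched chains and in the propionate shunt, was not among the 10 genes but differed between the strains. Under mock it was 2.83-fold higher in the libraries labelled glp-1 (SE 0.15 on the log2 scale, adjusted p = 9.49e-05, edgeR). Of the other genes of the same shunt, which breaks down propionyl-CoA when vitamin B12 is scarce, acdh-1 was at 6.10 and 10.3 CPM in N2 mock and at 1399 and 1378 CPM in glp-1 mock. It was higher in glp-1 by 7.40 (SE 0.29, 169-fold, adjusted p = 3.17e-07, edgeR), hphd-1 by 2.93 (SE 0.14, adjusted p = 6.52e-07, edgeR) and hach-1 by 0.78 (SE 0.15, adjusted p = 0.00915, edgeR). Leaving out N2 mock replicate 2 ended the hach-1 call (adjusted p = 0.0688), as did leaving out glp-1 mock replicate 1 (0.0811) or 2 (0.0611). These genes were chosen after their values were seen.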
